A study of Arabidopsis thaliana with 9 samples.

Results

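Transcripts of ribosomal proteins and of proteins that make ribosomal RNA were followed in 9 libraries of Arabidopsis thaliana seedlings. The genes were chosen by their symbol: a name that starts with RPL, RPS, RPP, FIB or NOP and a digit, with NUC-L, or that consists of RH and a number. This rule took 61 of the 24635 genes of the deposited tables, and no symbol of the form APUM was among them. Polyadenylated RNA of whole seedlings aged 6 days was read on a DNBSEQ instrument in 3 biological replicates of each group. The first group was melinoe, a line obtained with the mutagen EMS that is altered in FMN/FHY (AT4G21470), the gene of the enzyme that makes the cofactor FMN from riboflavin and also hydrolyses FMN. The labels do not give the base change, and which other EMS changes the line carries was not analysed here. The second group was wild-type Col-0 given riboflavin for 8 hours of the dark period, at 0.6 mM per the sample labels and 0.2 mM per the design text. The third group was untreated Col-0. All seedlings grew on medium with sucrose in days of 16 h of light and 8 h of dark. The hour at which untreated plants were collected and any mock treatment are not given in the sources used here, so riboflavin and the hours of dark cannot be told apart.

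Ribosomes translate messenger RNA into protein. A plant cell has 3 kinds of them: cytosolic ribosomes, whose proteins are all encoded in the nucleus, and the bacterial-type ribosomes of plastids and mitochondria, whose proteins are encoded partly in the nucleus and partly in the organelle. Most cytosolic ribosomal proteins are encoded by small families of near-identical genes. Cytosolic ribosomes are assembled in the nucleolus, where nucleolin acts in the transcription and processing of ribosomal RNA, fibrillarin and NOP56 form the box C/D particles that methylate it, and NOP10 belongs to the box H/ACA particles that convert uridine to pseudouridine. Growing tissue uses many ribosomes, and the kinase TOR is known to promote their production.

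Not every gene the symbols took belongs to these processes. By annotation, 12 encode proteins of the large and 13 of the small cytosolic subunit, 12 proteins of the plastid ribosome, 4 proteins of the mitochondrial ribosome, 6 nucleolar proteins and 5 RNA helicases named RH. Another 8 are disease resistance genes. RPP1, RPP4, RPP5, RPP8, RPP13 and RPP27, named for resistance to a downy mildew, and RPS4, named for resistance to Pseudomonas syringae, are among them. FIB4 encodes a plastid fibrillin, a lipid-associated protein unrelated to fibrillarin. RPP27 had 0 to 6 counts in each library and was not tested, which left 60 genes in each comparison. One gene of the small subunit, rps15ae, is annotated both to the mitochondrion and to the cytosolic ribosome. The place of the related rps15ab in the cytosolic ribosome was not tested.

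The upstream sequences of 5 members are shown because genes of cytosolic ribosomes and of the nucleolus are known to share short promoter elements, and RPL21C, a plastid ribosomal protein that changed strongly here, is set beside them. Each is the 250 bases before the annotated gene start, read 5′ to 3′ on the gene's strand from the TAIR10.1 genome. Capitals mark the telo box (AAACCCTA) and the site II element (TGGGCC or TGGGCT), on either strand; in RPS5A a site II element and the telo box share 1 base, and the matches do not overlap in the other sequences.
RPS5A (chr3:3779546-3779795, minus strand): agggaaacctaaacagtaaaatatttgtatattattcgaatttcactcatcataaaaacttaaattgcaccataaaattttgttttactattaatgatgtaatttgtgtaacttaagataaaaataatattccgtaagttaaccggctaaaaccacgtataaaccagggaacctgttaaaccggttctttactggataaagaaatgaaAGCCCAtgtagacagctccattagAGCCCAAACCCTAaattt
RPL5B (chr5:15903029-15903278, plus strand): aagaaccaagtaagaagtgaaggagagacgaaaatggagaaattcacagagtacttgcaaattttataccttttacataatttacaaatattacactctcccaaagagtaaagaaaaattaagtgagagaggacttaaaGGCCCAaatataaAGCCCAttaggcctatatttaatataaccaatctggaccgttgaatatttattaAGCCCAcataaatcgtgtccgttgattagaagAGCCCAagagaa
NOP56 (chr1:20986953-20987202, minus strand): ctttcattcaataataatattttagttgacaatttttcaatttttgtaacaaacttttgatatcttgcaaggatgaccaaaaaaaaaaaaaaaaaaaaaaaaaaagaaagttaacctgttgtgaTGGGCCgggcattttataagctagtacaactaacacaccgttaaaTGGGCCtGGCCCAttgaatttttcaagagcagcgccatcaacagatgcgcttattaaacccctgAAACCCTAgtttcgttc
FIB1 (chr5:21293897-21294146, plus strand): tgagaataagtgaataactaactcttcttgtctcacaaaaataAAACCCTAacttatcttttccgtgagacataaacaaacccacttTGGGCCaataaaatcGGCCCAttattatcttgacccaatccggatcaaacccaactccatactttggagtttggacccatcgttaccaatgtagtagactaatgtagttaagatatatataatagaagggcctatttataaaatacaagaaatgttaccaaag
RPL21C (chr1:13208433-13208682, plus strand): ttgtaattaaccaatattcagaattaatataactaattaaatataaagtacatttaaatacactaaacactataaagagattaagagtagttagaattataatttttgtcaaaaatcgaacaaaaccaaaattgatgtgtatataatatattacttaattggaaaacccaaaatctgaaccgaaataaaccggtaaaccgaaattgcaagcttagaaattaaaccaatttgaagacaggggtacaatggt

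RPS5A held 2 site II elements and 1 telo box before the gene start, with the telo box 13 bases before it. RPL5B held 4 site II elements, and its telo box lay just inside the gene. RPL21C held neither motif. Within 250 bases before and 50 bases after the gene start, 10 of 25 cytosolic ribosomal protein members had a telo box and 17 of 25 a site II element. Among nucleolar members the motifs were found in 5 of 6 and 4 of 6, and among plastid ribosomal protein members in 3 of 12 and 4 of 12. Over the 27443 protein-coding genes of the nuclear chromosomes, windows of the same length held a telo box in 6.22% and a site II element in 21.7% of cases. Both motifs together were found in 7 of 25 cytosolic, 3 of 6 nucleolar and 0 of 12 plastid members, and in 2.2% of all genes. The cytosolic and nucleolar genes printed above all hold both in this window, so they do not stand for their classes. These matches are letters in a window, and no binding was measured.

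Levels are given as TPM, counts scaled for transcript length and library depth, computed here from the deposited counts and the longest annotated transcript of each gene, so a level set beside that of another gene depends on that length. In Col-0 the mean levels had a median of 229 TPM for the large and 286 TPM for the small cytosolic subunit, where RPS15 was highest at 485 ± 11.3 TPM (SD, n = 3). Plastid ribosomal proteins had a similar median of 262 TPM. Nucleolar members ran over a wide range, with NUC-L2 at 3.13 ± 0.236 TPM and FIB1 at 154 ± 1.21 TPM. Mitochondrial ribosomal proteins had a median of 39.0 TPM and RH helicases of 24.0 TPM.

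Library totals ran over 19964397 to 21421418 counts, and log2 levels of genes correlated at 0.995 between libraries of a group. Transcripts of FMN/FHY were at 39.1, 42.1 and 40.9 TPM in melinoe and 123, 124 and 126 TPM with riboflavin, against 46.5, 49.6 and 45.1 TPM in Col-0. A level of the transcript does not check a base change in the gene. The shoot markers CAB1 and RBCS1A and the root markers PYK10, EXP7 and COBL9 had reads in every library. The summed root level was 3725 to 3831 TPM in melinoe, 2979 to 3125 TPM with riboflavin and 3462 to 3498 TPM in Col-0, nearly all of it from PYK10. Of the 61 members, 21 share stretches of at least 50 identical bases with another gene, 11 of them over more than 10% of such stretches. Stretches were matched on both strands. Whether the authors' counting used the strand is not given in the sources used here, so reads of these members are uncertain in their assignment. RPL12-A and RPL12-C, both on the plus strand, share stretches with each other, which counting by strand would not resolve. Most affected were RPL27AB, with 98.2% shared with an overlapping gene, RPL18AA with 52.1%, RPL12-A with 28.1% and RPL12-C with 24.8%, besides RH36 with 15.9% and the resistance genes RPP5, RPP1, RPP13, RPP4 and RPP8 with 16.5% to 45.4%.

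The first comparison sets Col-0 given riboflavin against untreated Col-0 and addresses the response of the wild type. Of the plastid ribosomal proteins 11 of 12 fell, of the cytosolic ones 17 of 25 fell and by less, and 4 of 6 nucleolar members rose. Of the 60 members tested, 15 were higher and 32 lower with riboflavin (edgeR, Benjamini-Hochberg adjusted p under 0.05, which defines a call throughout). Among all 20356 genes tested, 74.2% were called, 36.8% higher and 37.4% lower, and the median log2 fold change was -0.0028, against -0.20 over the members. Libraries of the 2 groups did not overlap for 15390 of the 20356 genes and for 46 of the 60 members, so most genes share this trait. The summed level of the plastid members was 1353 ± 9.68 TPM with riboflavin and 3094 ± 24.3 TPM in Col-0, a ratio of 0.44, with no overlap. For the large cytosolic subunit it was 2038 ± 25.8 TPM with riboflavin and 2824 ± 59.9 TPM in Col-0, and for the small subunit 3152 ± 43.3 TPM with riboflavin and 3766 ± 73.3 TPM in Col-0. The summed nucleolar level was 611 ± 12.1 TPM with riboflavin and 491 ± 8.53 TPM in Col-0.

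**Figure D1:**
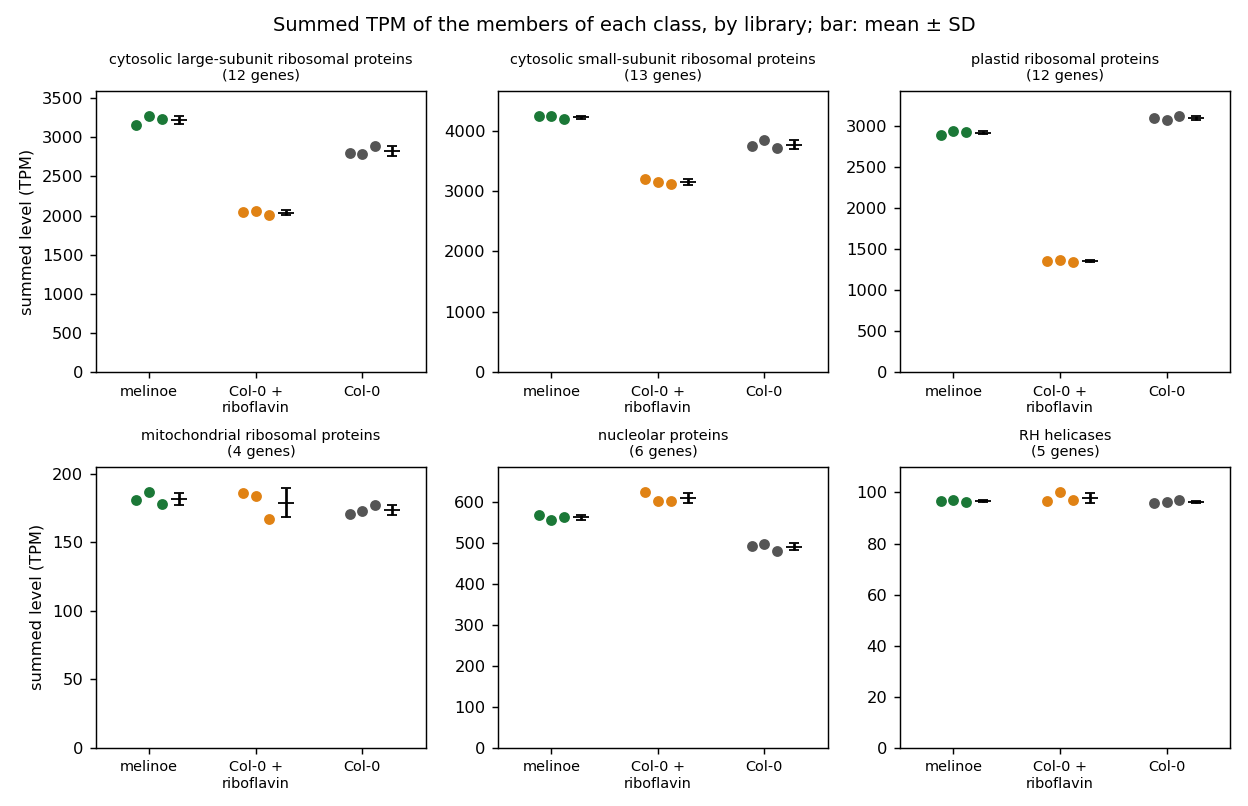
Summed TPM of the members of 6 classes (y axis, from 0) in each library of melinoe, Col-0 with riboflavin and Col-0 (x axis), with points for libraries and bars for mean ± SD (n = 3). Riboflavin libraries were lowest for both cytosolic subunits and the plastid class and highest for the nucleolar class, while the 3 groups overlapped for the RH class. For the mitochondrial class melinoe lay above Col-0, and the riboflavin libraries overlapped with both.

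All 12 plastid members were called, 11 lower and 1 higher, and the median of their log2 fold changes was -1.20. A fall past a log2 fold change of -1 was measured for 9 of the 12, and for 9.94% of all genes tested. RPL21C (AT1G35680, chr1:13208683-13210428, 5 exons) had 85.3, 80.6 and 78.4 TPM in the riboflavin libraries, against 258, 274 and 265 TPM in Col-0. The groups did not overlap, and its log2 fold change was -1.69 (standard error 0.044, adjusted p = 2.12e-22). RPL9 (AT3G44890, chr3:16386395-16388723, 7 exons), another large-subunit protein, had 45.1, 45.5 and 48.5 TPM with riboflavin and 151, 149 and 145 TPM in Col-0, a log2 fold change of -1.67. Its riboflavin libraries also lay far below Col-0. RPL27 fell by 1.41 on the log2 scale, to 109 ± 6.37 TPM with riboflavin, against 292 ± 12.9 TPM in Col-0. The stalk of the large subunit contacts translation factors, and its protein is encoded by RPL12-A and RPL12-C, which had log2 fold changes of -1.29 and -0.86. In the small subunit, RPS1, which binds messenger RNA, had -1.24 and RPS9 -1.05. In the large subunit, other members that fell were RPL15 at -1.41, RPL24 at -1.13 and RPL4 at -0.95.

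The exception was RPL3P (AT3G17465, chr3:5977722-5979694, 5 exons), annotated as the plastid L3 protein, with 62.7, 62.9 and 59.9 TPM in riboflavin libraries and 40.7, 40.0 and 39.9 TPM in Col-0. It rose by a log2 fold change of 0.63 (standard error 0.047, adjusted p = 2.23e-12), with no overlap between groups. In Col-0 it was also the least abundant of the 12, at 40.2 TPM, where mitochondrial members ran from 33.1 to 62.3 TPM. Its place in the plastid ribosome rests on its annotation and was not tested. Transcripts of ribosomal proteins encoded in the plastid genome were not analysed here.

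**Figure D2:**
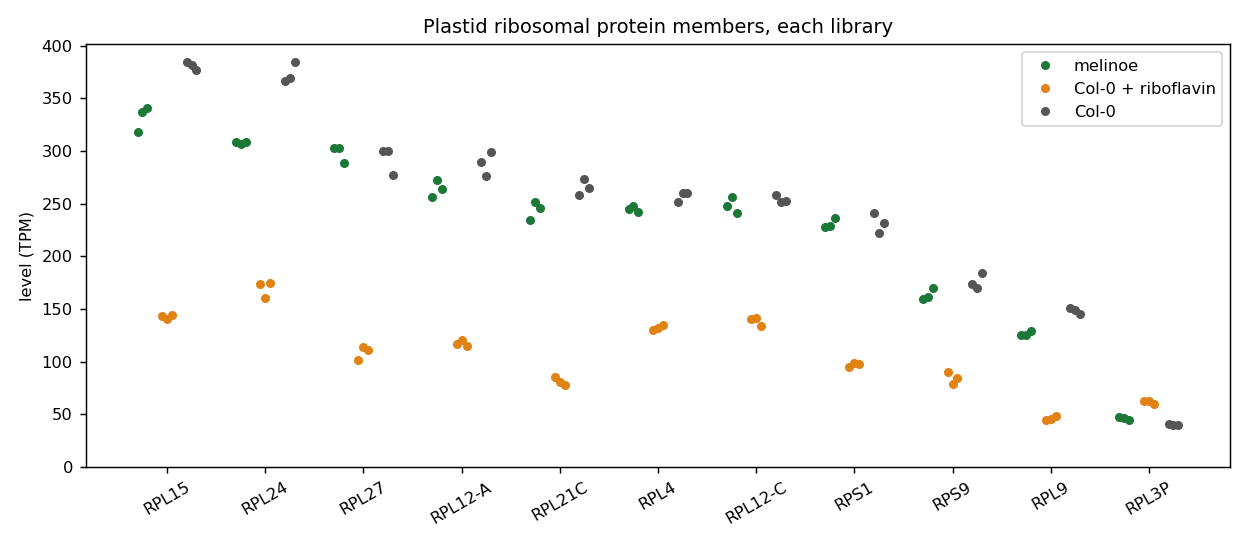
Level in TPM (y axis) of 11 plastid ribosomal protein members (x axis, in order of their Col-0 level) in each library of melinoe, Col-0 with riboflavin and Col-0. Riboflavin libraries lie below Col-0 for 10 of them and above it for RPL3P, at 59.9 to 62.9 TPM with riboflavin against 39.9 to 40.7 TPM in Col-0.

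In the large cytosolic subunit, 9 of 12 members fell with riboflavin and 1 rose, the median being -0.55. RPL24A (AT2G36620, chr2:15350268-15352013, 5 exons), a gene of the L24 protein of the large subunit, had 75.2, 77.0 and 88.5 TPM with riboflavin, against 173, 152 and 177 TPM in Col-0. Every riboflavin library lay below every Col-0 library, and the log2 fold change was -1.05 (standard error 0.056, adjusted p = 1.81e-15). RPL3B, one of the genes of the L3 protein near the peptidyl transferase centre, fell by 0.76 and RPL23AA by 0.70 on the log2 scale. RPL5B (AT5G39740, chr5:15903279-15905532, 7 exons), whose protein binds the 5S ribosomal RNA and whose upstream sequence is printed above, had 252, 232 and 253 TPM with riboflavin, against 369, 397 and 417 TPM in Col-0, and its log2 fold change was -0.67. RPL27AB (-0.00053) and RPL16A (0.02) did not pass. RPL18AA (AT1G29970, chr1:10498351-10501498, 7 exons) went the other way, with 90.0, 89.7 and 96.7 TPM with riboflavin and 50.6, 55.3 and 55.1 TPM in Col-0, a log2 fold change of 0.79 (adjusted p = 6.52e-14). It shares 52.1% of its 50-base stretches with an overlapping gene.

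Of the 13 members of the small cytosolic subunit, 8 fell and 2 rose, with a median of -0.23. The lowest log2 fold changes were those of rps15ab at -0.60, RPS13A at -0.59 and RPS5B at -0.56. In Col-0 rps15ab was the least abundant of this class, at 19.3 TPM. RPS13A (AT4G00100, chr4:36916-38384, 5 exons) showed no overlap, with 297, 297 and 287 TPM with riboflavin, against 451, 454 and 435 TPM in Col-0. RPS6 (AT4G31700, chr4:15345979-15347804, 6 exons), which S6 kinase phosphorylates downstream of TOR, had 347, 361 and 355 TPM with riboflavin, against 503, 484 and 449 TPM in Col-0, a log2 fold change of -0.42. The members that rose were RPS15AD at 0.43 and RPS18C at 0.24, and neither overlapped with Col-0. RPS5A (-0.08), RPS28 (-0.08) and rps15ae (-0.10) did not pass. RPS28 was called without Col-0 library A, at -0.19, and RPS5A was called under 5 alternatives, at -0.15 to -0.09.

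Among nucleolar members, 4 of 6 rose with riboflavin and none fell, with a median of 0.36. NUC-L2 (AT3G18610, chr3:6404053-6407946, 18 exons), the less abundant of the nucleolin genes, had 6.88, 7.79 and 7.33 TPM in the riboflavin libraries, against 3.40, 2.97 and 3.02 TPM in Col-0. Its log2 fold change was 1.24 (standard error 0.105, adjusted p = 3.91e-11), and it was the one member past a log2 fold change of 1 in the upward direction. Among all 20356 genes tested, 1567 were called higher with riboflavin and passed that value. NUC-L1, the major nucleolin gene, rose by 0.38, to 196 ± 7.32 TPM with riboflavin, against 152 ± 9.12 TPM in Col-0. NOP10 (AT2G20490, chr2:8831681-8832929, 3 exons) had 118, 87.7 and 119 TPM with riboflavin and 69.3, 70.7 and 75.7 TPM in Col-0, a log2 fold change of 0.60; its riboflavin libraries varied most, yet all lay above Col-0. FIB1 rose by 0.34. NOP56, at 0.00068, did not pass, and neither did FIB2, at -0.09; FIB2 was called lower, at -0.15, under upper quartile scaling, and at -0.14 when riboflavin library A was left out.

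RH helicases unwind RNA. RH1 rose by 0.73, with 8.82, 7.63 and 8.61 TPM with riboflavin and 4.40, 5.41 and 5.40 TPM in Col-0, and RH36, which acts in processing of the small-subunit ribosomal RNA, rose by 0.28. RH39, known for maturation of the plastid 23S ribosomal RNA, fell to 21.0, 22.5 and 21.3 TPM with riboflavin, against 26.3, 26.1 and 27.0 TPM in Col-0, a log2 fold change of -0.28. RH8 and RH20 did not pass. Of the 4 mitochondrial ribosomal proteins, RPS14 was higher at 0.19 and RPS10 lower at -0.19, although its libraries overlapped with Col-0. The call of RPS10 was lost with DESeq2, without riboflavin library C, at -0.11, and without Col-0 library A or C.

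The disease resistance genes and FIB4 share the symbol but not the role. FIB4 had 46.6, 48.5 and 48.4 TPM with riboflavin and 98.8, 98.0 and 96.3 TPM in Col-0, a log2 fold change of -1.02. Of 7 resistance genes tested, 4 rose and RPP13 fell, at -0.18. RPP5 had the highest value, 0.88, followed by RPP4 at 0.48, and they share 45.4% and 29.4% of their 50-base stretches with other genes. Without the resistance genes and FIB4, 11 of 52 members were higher and 30 lower, with a median of -0.34.

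**Figure D3:**
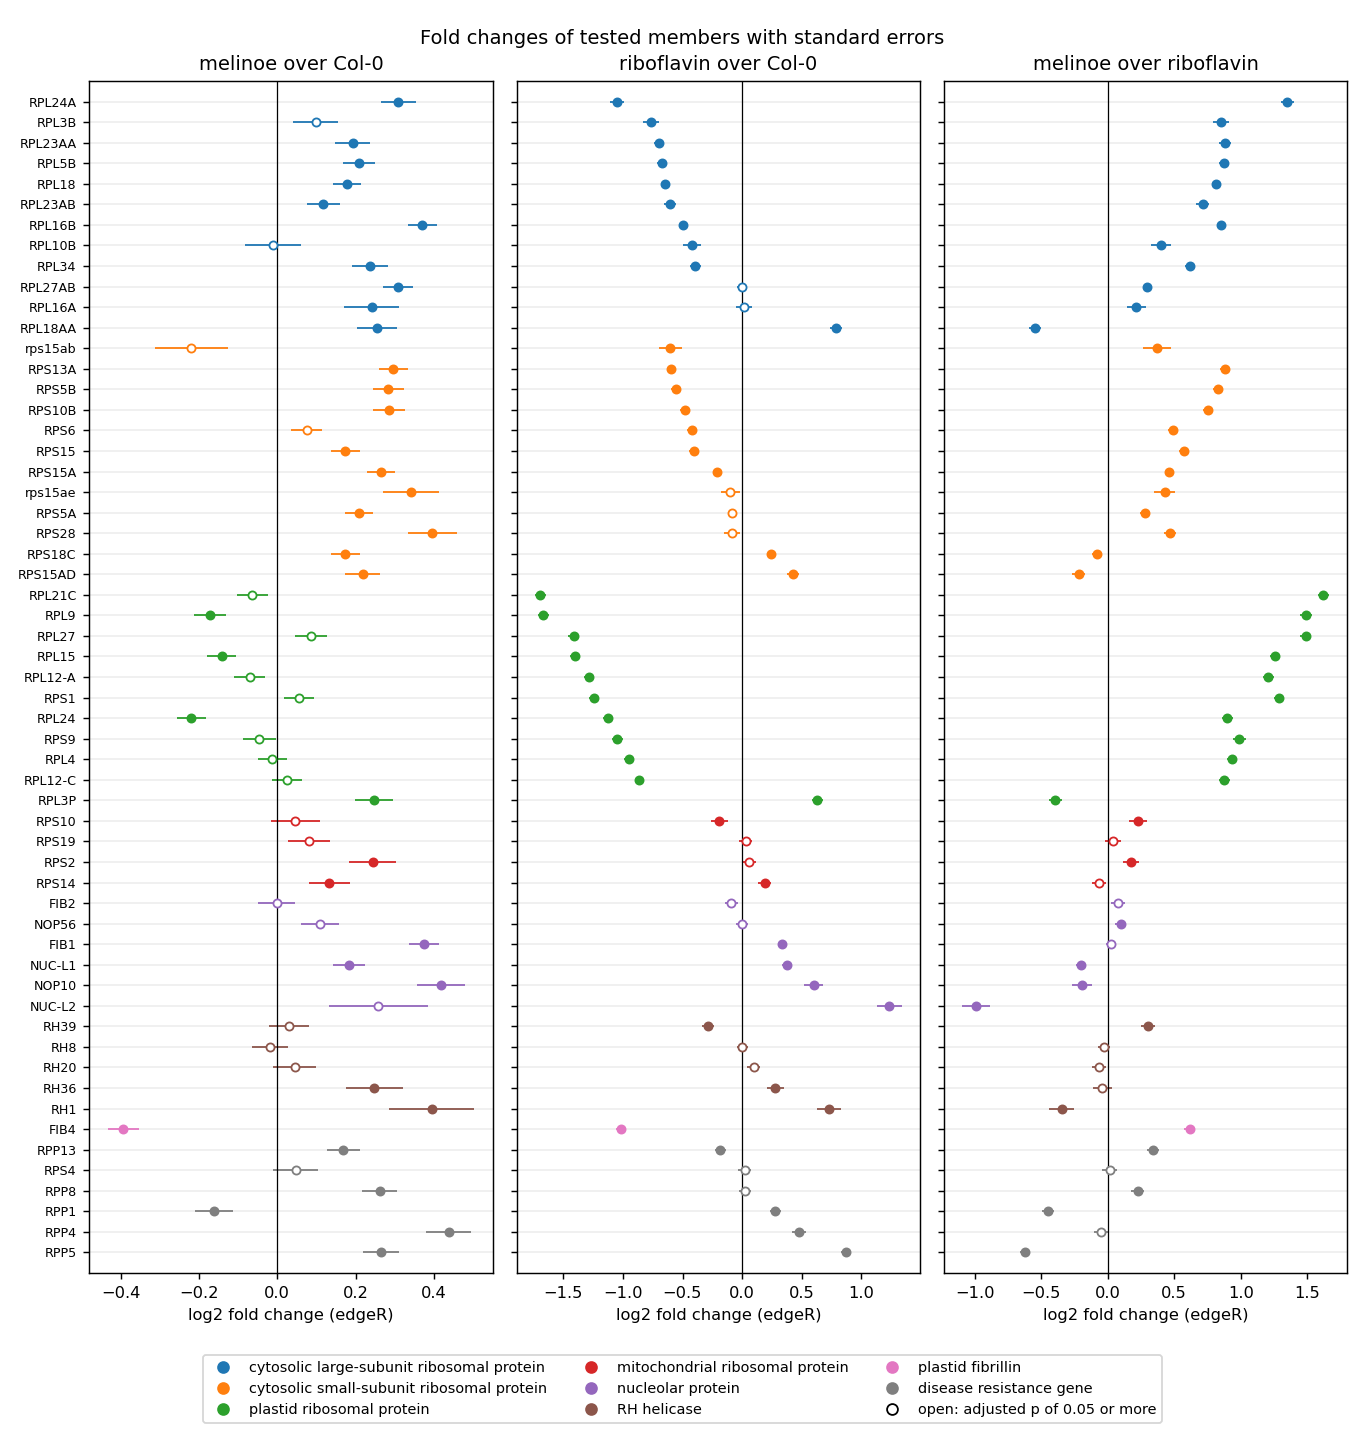
Log2 fold change (x axis, with its standard error) of 57 tested members (rows, by class) for melinoe over Col-0, riboflavin over Col-0 and melinoe over riboflavin. Filled points passed an adjusted p of 0.05; the 3 x axes differ in range, and plastid members reach -1.69 with riboflavin but lie between -0.22 and 0.25 in melinoe.

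Other genes of the same machinery were taken from lists of cytosolic, plastid and mitochondrial ribosomal proteins in the annotation and of known assembly factors. Of 126 other cytosolic ribosomal protein genes tested, 93 were lower and 20 higher with riboflavin, the median being -0.35. Their summed level was 25460.0 ± 113 TPM with riboflavin and 32229 ± 588 TPM in Col-0. Of 32 other plastid ribosomal protein genes, 22 were lower and 4 higher, with a median of -0.83. The lowest were PSRP3/1 at -1.87 and GHS1, the plastid S21 protein, at -1.66. Of 17 other mitochondrial ribosomal protein genes, 8 were lower and 6 higher. Another 86 genes annotated as ribosomal proteins could not be placed in 1 of the 3 kinds of ribosome. Of 82 of these unplaced genes tested, 42 were lower and 25 higher, with a median of -0.09.

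Ribosome assembly factors went mostly up with riboflavin: 31 of 42 were higher and 1 lower, with a median of 0.26. The highest was eIF6A, which keeps new large subunits from joining small ones too early. Its level was 320.1 ± 14.4 TPM with riboflavin and 76.6 ± 3.87 TPM in Col-0, a log2 fold change of 2.07 (adjusted p = 3.24e-24). REIL1 and REIL2, which act late in maturation of the large subunit, rose by 0.99 and 0.85, LSG1-1, a GTPase of the same stage, by 0.79, and TOZ, of the small-subunit processome, by 0.76. The exception was EBP1, at -0.12. The list was summed to 1883 ± 19.6 TPM with riboflavin and 1382 ± 10.3 TPM in Col-0, and a large part of this difference came from eIF6A.

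All 4 listed genes of RNA polymerases I and III, which transcribe ribosomal RNA, rose with riboflavin, by 0.29 to 0.65. The list called growth signalling held 6 genes: TOR, RAPTOR1B, LST8-1, S6K1, S6K2 and ANAC082. Of these 5 rose, including TOR at 0.46 and the S6 kinases S6K1 at 0.57 and S6K2 at 0.66. The nucleolar Pumilio proteins APUM23 and APUM24, listed as PUM23 and PUM24 and hence not taken by the symbols, process ribosomal RNA and rose by 0.22 and 0.56.

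Markers of dividing cells, in which ribosome production is known to be high, moved with the same comparison. Of 8 such markers, 7 fell and none rose, with a median of -1.24, and their summed level was 48.2 to 52.4 TPM in riboflavin libraries, against 107 to 111 TPM in Col-0. The shoot markers CAB1 and RBCS1A both fell by 1.70 on the log2 scale, and the list was summed to 7191 to 7294 TPM with riboflavin, against 23250.0 to 24261 TPM in Col-0. Of the root markers, COBL9 fell, at -0.74, and PYK10, at -0.17, while EXP7 rose by 0.55. None of these markers was at 0, and the part of these cell types in the fall of ribosomal proteins was not tested. In whole seedlings, fewer cells of a type and less RNA per cell cannot be told apart.

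**Figure D4:**
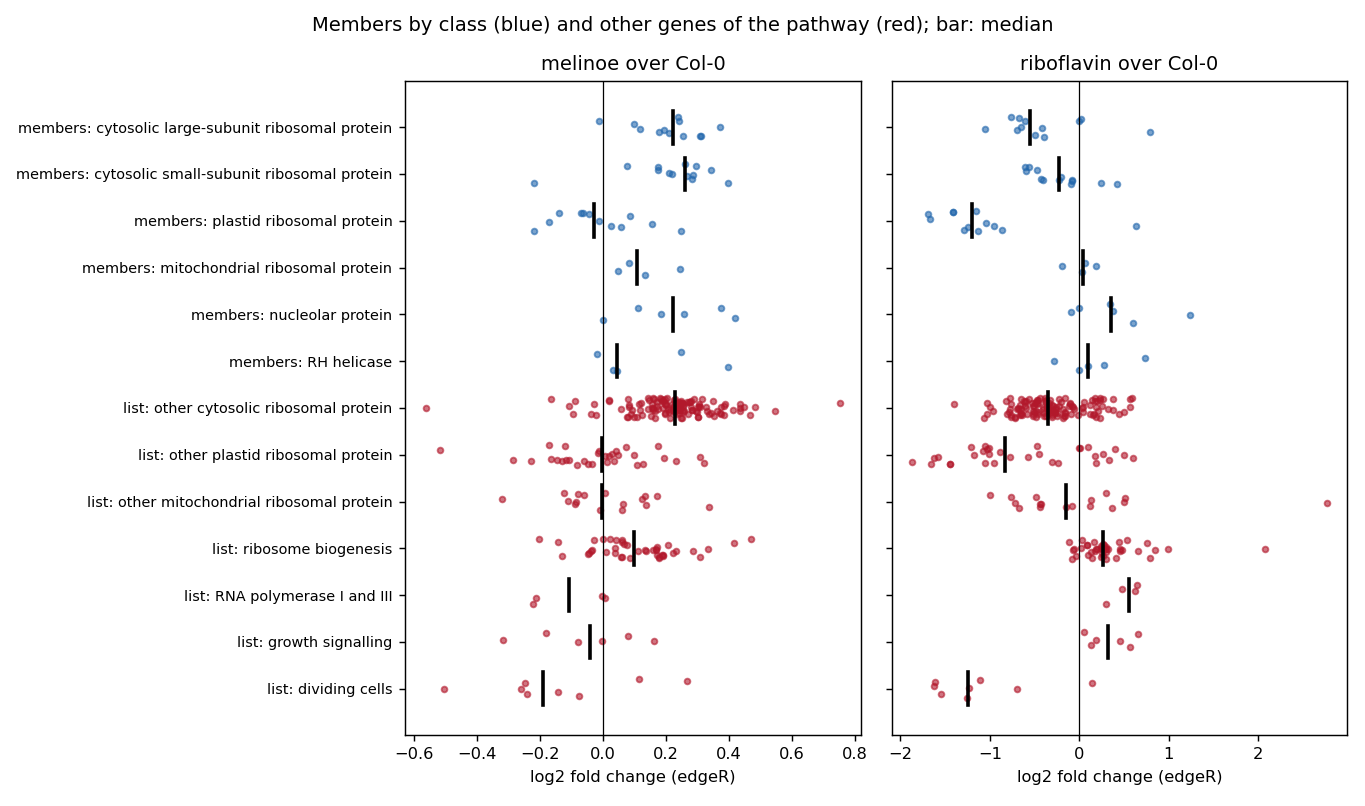
Log2 fold change (x axis) of melinoe over Col-0 and of riboflavin over Col-0 for members of 6 classes (blue) and genes of 7 lists (red), 1 point per tested gene with black bars at medians; vertical scatter carries no meaning. With riboflavin the medians are -1.20 for plastid members, -0.35 for other cytosolic ribosomal proteins and 0.26 for ribosome biogenesis, and in melinoe they are -0.03, 0.23 and 0.10.

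The comparison of melinoe with Col-0 addresses how the mutant line differs without added riboflavin, and it uses the same Col-0 libraries. Other EMS changes of the line were not analysed, so its values cannot be assigned to FMN/FHY alone. Cytosolic ribosomal proteins were higher in melinoe in 21 of 25 cases, by up to 0.40 on the log2 scale, while of 12 plastid ones 2 were higher and 3 lower. Of the 60 members tested, 34 were higher and 5 lower, and the median was 0.17 on the log2 scale. Among all 20277 genes tested, 50.6% were called, 25.4% higher and 25.2% lower, and the median was -0.0032. Libraries of the 2 groups did not overlap for 11473 of the 20277 genes and for 41 of the 60 members. With limma on log2(TPM + 1) the calls over all genes were 3929 higher and 6089 lower, against 5148 and 5106 in edgeR. No member passed a log2 fold change of 1 in either direction, and the values ran from -0.39 for FIB4 to 0.44 for RPP4. The summed level of the large cytosolic subunit was 3219 ± 53.4 TPM in melinoe and 2824 ± 59.9 TPM in Col-0, and of the small subunit 4224 ± 22.8 TPM in melinoe and 3766 ± 73.3 TPM in Col-0, so the ratios were 1.14 and 1.12.

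Of 25 cytosolic members, 21 rose in melinoe and none fell, with medians of 0.22 for the large and 0.26 for the small subunit. With the trend on transcript length and GC content removed 17 of the 25 were higher, with limma on TPM 19, and in both rps15ab was lower. RPL16B (AT4G18730, chr4:10302163-10303432, 5 exons), a gene of the L11-type protein of the large subunit, had 573, 577 and 576 TPM in melinoe, against 481, 452 and 456 TPM in Col-0, with a log2 fold change of 0.37 (standard error 0.036, adjusted p = 1.62e-09). RPL24A had 202, 199 and 197 TPM in melinoe and 173, 152 and 177 TPM in Col-0, a log2 fold change of 0.31, and RPL27AB had 0.31. RPS28 (AT5G64140, chr5:25667324-25668777, 2 exons) had 159, 167 and 152 TPM in melinoe, against 107, 139 and 132 TPM in Col-0, and was highest of the small subunit at 0.40. Its groups did not overlap, although Col-0 library A lay well below the others. The gene rps15ae rose by 0.34 and RPS13A by 0.30. RPL10B (-0.01), RPL3B (0.10) and RPS6 (0.08) did not pass. For rps15ab, with 16.3, 15.9 and 15.4 TPM in melinoe against 19.0, 19.7 and 19.0 TPM in Col-0, the log2 fold change was -0.22 and the adjusted p was 0.0501, and over the alternatives the adjusted p ran from 0.00145 to 0.183.

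Plastid ribosomal proteins were called in 5 of 12 cases, 2 higher and 3 lower, with a median of -0.03. RPL24 (AT5G54600, chr5:22182843-22184610, 4 exons) had 309, 306 and 309 TPM in melinoe, against 367, 369 and 384 TPM in Col-0, a log2 fold change of -0.22 (standard error 0.037, adjusted p = 1.40e-05). RPL9 was lower at -0.17 and RPL15 at -0.14. RPL3P was higher at 0.25, with 47.1, 46.2 and 44.4 TPM in melinoe and 40.7, 40.0 and 39.9 TPM in Col-0. RPL21C, the member lowest with riboflavin, had 235, 251 and 246 TPM in melinoe, against 258, 274 and 265 TPM in Col-0, and did not pass. It was called lower, as was RPL12-A, at -0.16 each with the trend removed and, with limma on TPM, at -0.12 for RPL21C and -0.13 for RPL12-A. RPS9 was also called lower with the trend removed, at -0.12, which made 6 plastid members lower under that alternative, against 3.

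In the nucleolar class, NOP10, FIB1 and NUC-L1 rose in melinoe. NOP10 had 101, 87.4 and 88.8 TPM in melinoe, against 69.3, 70.7 and 75.7 TPM in Col-0, a log2 fold change of 0.42 (adjusted p = 1.82e-06). FIB1 (AT5G52470, chr5:21294147-21296819, 7 exons) had 192, 189 and 195 TPM in melinoe, against 153, 155 and 155 TPM in Col-0, a log2 fold change of 0.37 (adjusted p = 3.05e-09), and NUC-L1 had 0.18. FIB2 at -0.0018, NOP56 at 0.11 and NUC-L2 at 0.26 did not pass; NOP56 was called at 0.17 without Col-0 library A and at 0.11 with the column letters as a replicate block.

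RH1 rose by 0.40 in melinoe and RH36 by 0.25, though with limma on TPM the value of RH36 was 0.17 (limma, adjusted p = 0.0528). Of the mitochondrial members, RPS2 rose by 0.24 and RPS14 by 0.13. The call of RPS14 was lost under 8 alternatives, among them DESeq2 at 0.14, limma on TPM at 0.08 and the fit without Col-0 library A at 0.10. FIB4 had 71.2, 71.2 and 72.0 TPM in melinoe, against 98.8, 98.0 and 96.3 TPM in Col-0, a log2 fold change of -0.39. Among resistance genes RPP4, RPP5, RPP8 and RPP13 rose, by 0.17 to 0.44 (RPP13 was not called with limma on TPM), and RPP1 fell, at -0.16, but had 0.01 with the trend on length and GC content removed.

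Among the other genes of the machinery, cytosolic ribosomal proteins were again mostly higher in melinoe. Of 126 other cytosolic ribosomal protein genes, 105 rose and 1 fell, the median being 0.23. The one that fell was AT5G59240, of the S8e family, at -0.56. Of 32 other plastid ribosomal protein genes 3 rose and 8 fell, and of 16 other mitochondrial ones 2 rose and 1 fell. Of 81 unplaced ribosomal protein genes tested, 48 rose and 1 fell, with a median of 0.17. Assembly factors rose in 17 of 42 cases and fell in none, with a median of 0.10. SWA1, a factor of 18S ribosomal RNA processing, had 0.47, DIM1A, a methyltransferase of that RNA, 0.42 and eIF6A 0.29. NRPC1 and NRPC2, of RNA polymerase III, fell, at -0.22 and -0.21, as did TOR at -0.18 and S6K2 at -0.32. S6K1 rose by 0.16. APUM24 rose by 0.19 and APUM23, at 0.10, did not pass.

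Among the 8 markers of dividing cells, 3 fell and 1 rose in melinoe, with a summed level of 98.7 to 99.9 TPM in melinoe and 107 to 111 TPM in Col-0. CAB1 and RBCS1A fell, at -0.30 and -0.26. Of the root markers, EXP7 fell, at -0.82, and COBL9, at -0.76, larger changes than that of any member tested in this comparison, while PYK10 rose by 0.18. None of these markers was at 0, and their part in the values of the members was not tested.

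The direct comparison of melinoe with riboflavin-treated Col-0 tests whether the groups differed from each other. Of 60 members, 40 were higher in melinoe and 10 lower, with a median of 0.38, while among all 20344 genes tested 74.1% were called, 37.1% higher and 37.0% lower, with a median of 0.0024. Libraries of the 2 groups did not overlap for 15299 of the 20344 genes and for 50 of the 60 members. All 25 cytosolic members were called, 22 higher and 3 lower in melinoe, with medians of 0.76 for the large and 0.47 for the small subunit. RPL24A was at 199 ± 2.70 TPM in melinoe and 80.2 ± 7.20 TPM with riboflavin, a log2 fold change of 1.35 (adjusted p = 4.04e-21). RPL23AA had 0.88, RPS13A 0.88, RPL5B 0.87, RPS5B 0.83 and RPS10B 0.75. The lower ones were RPL18AA at -0.55, RPS15AD at -0.22 and RPS18C at -0.08, the last of which lost its call under 8 alternatives. RPL16A, at 0.21, had overlapping libraries and lost its call under 3 alternatives, with 0.10 when the trend was removed and 0.16 both without melinoe library A and without riboflavin library A.

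The plastid class had the largest median of the classes in this comparison. In melinoe 11 of 12 were higher and RPL3P lower, with a median of 1.23, and 7 passed a log2 fold change of 1. Among all 20344 genes tested, 1955 were called higher in melinoe and passed that value. RPL21C was at 244 ± 8.38 TPM in melinoe and 81.4 ± 3.53 TPM with riboflavin, a log2 fold change of 1.62 (adjusted p = 2.96e-24), and RPL27 and RPL9 had 1.49 and 1.49. RPL3P had -0.39. In the nucleolar class 3 members were lower and 1 higher: NUC-L2 was lower in melinoe at -0.99 and NUC-L1 at -0.20, and FIB1, at 0.03, and FIB2 did not pass. NOP10, at -0.19 with overlapping libraries, and NOP56, at 0.10, were called but lost the call with DESeq2 and without 4 and 5 of the 6 libraries left out in turn.

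RH39 was higher in melinoe at 0.30 and RH1 lower at -0.35. The mitochondrial proteins RPS10 and RPS2 were higher at 0.23 and 0.17, and both lost the call with the trend on length and GC content removed and without riboflavin library C. RPP13 and RPP8 were higher in melinoe and RPP5 and RPP1 lower, with values from -0.62 to 0.34, and FIB4 was higher at 0.62. Of the lists, 105 of 126 other cytosolic and 20 of 32 other plastid ribosomal protein genes were higher in melinoe, and 25 of 42 assembly factors lower and 5 higher. Of 83 unplaced ribosomal protein genes tested, 51 were higher and 16 lower in melinoe.

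Members that encode near-identical or closely related proteins were compared within each library as the log2 ratio of their TPM, for 8 pairs chosen after their values were seen. With 3 libraries against 3 the exact permutation test cannot go below 0.1, and adjusted over the 24 tests made the smallest value was 0.16 (exact permutation test, two-sided, Benjamini-Hochberg), so no difference could pass. The values below are a description. RPS5A and RPS5B encode the S5 protein, and the first is known for high levels in dividing cells. The log2 ratio of RPS5A over RPS5B was 1.68, 1.51 and 1.62 with riboflavin and 1.14, 1.11 and 1.14 in Col-0, with no overlap and a difference of 0.47. Its values in melinoe, 1.05, 1.14 and 0.98, overlapped with Col-0.

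In 4 pairs the gene less abundant in Col-0 had a larger share with riboflavin. RPL16A over RPL16B was -3.36 ± 0.0928 with riboflavin and -3.86 ± 0.0513 in Col-0 (mean ± SD, n = 3), and RPS15AD over RPS15A was -0.38 ± 0.111 with riboflavin and -1.01 ± 0.054 in Col-0. NUC-L2 over NUC-L1 was -4.74 ± 0.0686 with riboflavin and -5.60 ± 0.126 in Col-0, the difference of 0.86 being the largest of the 8 pairs in that comparison. RPL12-A over RPL12-C was -0.24 ± 0.0273 with riboflavin and 0.18 ± 0.0592 in Col-0, though these genes share sequence. In these pairs the riboflavin and Col-0 libraries did not overlap. For rps15ab over rps15ae the ratio was lower with riboflavin by 0.50 and in melinoe by 0.56, against Col-0, and for RPL12-A over RPL12-C it was lower by 0.09 in melinoe. RPL23AA over RPL23AB overlapped between the groups in each comparison.

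FIB1 over FIB2, the fibrillarin genes, was 1.92, 1.88 and 1.91 in melinoe, 1.88, 2.05 and 1.94 with riboflavin and 1.54, 1.50 and 1.54 in Col-0. Melinoe and riboflavin libraries overlapped with each other and lay above Col-0, by 0.38 and 0.43. FIB2 itself had 50.8, 51.3 and 51.9 TPM in melinoe, 53.6, 48.2 and 48.0 TPM with riboflavin and 52.4, 54.7 and 53.4 TPM in Col-0.

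**Figure D5:**
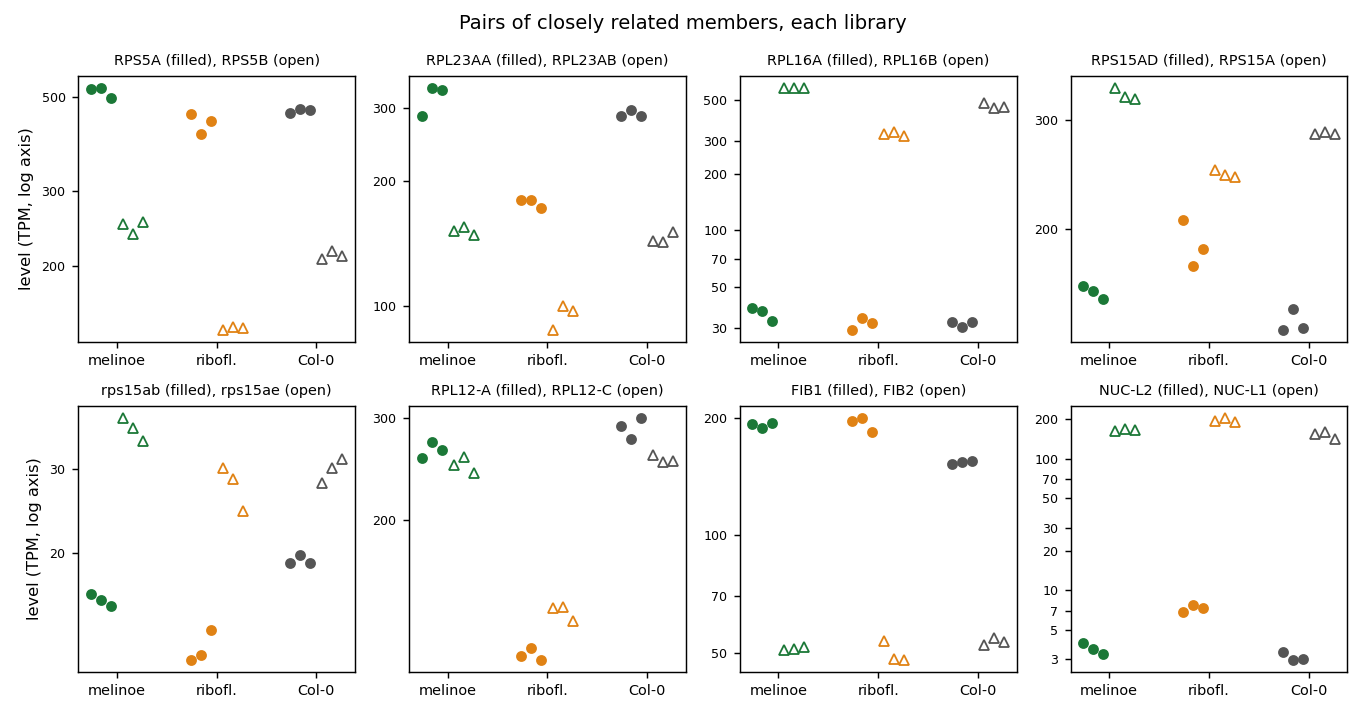
Level in TPM (y axis, logarithmic) of both genes of 8 pairs of related members in each library of melinoe, Col-0 with riboflavin and Col-0. With riboflavin the open symbols of RPS5B, RPL16B and RPS15A lie below Col-0 while RPL16A overlaps with it, RPS5A lies just below it and RPS15AD lies above it.

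In the authors' deposited table of the mutant, 32 members were higher and 5 lower at a q-value under 0.05, and all 37 were also called here, with 2 called here only. In the authors' deposited table of riboflavin, 15 were higher and 31 lower, all 46 of them called here, with 1 called here only, and no member had opposite signs.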

How the data were processed

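Polyadenylated RNA was measured in 9 strand-specific libraries, 3 of each group. The authors deposited 1 table of mutant and 1 of riboflavin against Col-0, both holding the same Col-0 libraries. Per the file headers they give expected counts of reads per gene and library; 1.9% were not whole and were rounded here. The authors' log2 fold changes and q-values, also deposited per the file headers, served only to set their calls beside those made here. The 12 deposited TPM columns of single libraries were not used, since columns are tied to groups only by their names and 1 measure per library was kept. The submitters' processing notes name Bowtie2, RSEM, DESeq2 and TAIR10, and the design text SOAPnuke 1.5.2 and HISAT2 2.0.4, so the aligner behind the values is not settled. A gene in one table only (779 genes, none with Col-0 reads) was set to 0 in the other group.

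Counts were tested in edgeR 4.0.16 (R 4.3.3) with TMM scaling, filterByExpr at a minimum count of 10 and total of 15, and the quasi-likelihood F test. Each comparison used its own 6 libraries, and Benjamini-Hochberg adjustment ran over all genes tested. Standard errors are the log2 fold change divided by the root of F. TPM was computed from rounded counts and the longest annotated transcript, leaving out 702 genes without one. Totals in the report give the depth, which limits low genes such as RPP27. By rule, the genes named were, per class and comparison, the 3 highest and 3 lowest called members without overlap and with a mean of at least 100 counts, and every nucleolar member; other names were chosen for their role or after their values were seen. Of the 61 members, 3 enter the counts, medians and sums but are not reported here singly.

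The code was tested on simulated counts with known changes. Alternatives were DESeq2 1.42.0, scaling in edgeR by its size factors or by the upper quartile, no filter, a mean of 50 counts or more, a single fit of all 9 libraries, column letters as a replicate block, removal of a trend on transcript length and GC content, a log2 fold change of 1 or more in size, and each library left out in turn. Limma-trend (limma 3.58.1) on log2(TPM + 1) with the TPM computed here was added after seeing the data. Members and lists were chosen with earlier results of these data known. Replicate libraries were compared, and none looked like a repeat of another: chi-square per gene was 1.82 to 2.62. Positions and sequences are from TAIR10.1; the notes name TAIR10, and genes were matched by identifier.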

Additional observations from a re-analysis of the deposited data

How the results depend on the processing

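With a log2 fold change of 1 or more also required, 1230 genes were called in melinoe against Col-0 with 0 members higher and 0 lower; 3591 genes with 1 member higher and 11 lower for riboflavin against Col-0; and 3467 genes with 8 members higher and 0 lower in melinoe against riboflavin. In melinoe against Col-0, members called lower numbered 8 both with the trend on length and GC content removed and with limma on TPM, against 5. Limma on TPM moved the median log2 fold change of all genes to -0.05 there. RPP1 changed sign with the trend removed, at 0.0117, and was not called; the cause was not tested. The alternative on the deposited TPM columns was not run, since those columns were not used.

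Nothing ties the column letters A to C to the numbers in the labels. Same-letter libraries shared no deviation, with correlations across genes of -0.0234 to 0.0379. With the letters as a replicate block, 10428, 15034 and 15089 genes were called in the mutant, riboflavin and direct comparisons; members were 35 higher and 5 lower, 15 and 32, and 40 and 10.

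Leaving out 1 library gave 9310 to 9695 genes called in melinoe against Col-0, with 32 to 35 members higher and 5 to 5 lower, 14505 to 14732 with 15 to 16 and 31 to 34 for riboflavin against Col-0, and 14502 to 14677 with 37 to 39 and 8 to 10 in the direct comparison. The other counts of all genes and of members, under the alternatives run, stayed within 1.5 times. Depth limits low genes: RPP27, at 0 to 6 counts, allows no statement.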

Other observations

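Seed storage protein genes, used as markers of seed remnants, had few reads. SESA1 had 12, 18 and 23 counts in melinoe, 3, 1 and 0 with riboflavin and 9, 5 and 7 in Col-0. SESA2 had 15, 22 and 31 counts in melinoe, 1, 0 and 2 with riboflavin and 0, 3 and 0 in Col-0. SESA3 had 21, 16 and 18 counts in melinoe and 2, 0 and 2 with riboflavin, and was at 0 in each Col-0 library. Melinoe libraries lay above the others for all 3 genes, whereas the 12S globulin gene CRA1 had 127, 107 and 112 counts in melinoe, 123, 132 and 141 with riboflavin and 191, 159 and 194 in Col-0. Their part in the values of the ribosomal protein genes was not tested.

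Among genes outside the members, picked after their values were seen, AT2G07696, a gene of the S7 family of ribosomal proteins listed as mitochondrial, had 48, 55 and 43 counts with riboflavin and 10, 5 and 7 in Col-0, a log2 fold change of 2.76 (edgeR, adjusted p = 4.89e-10). AT2G07734, with a ribosomal protein domain, had 123, 99 and 128 counts with riboflavin and 15, 19 and 4 in Col-0, and AT2G07675 had 28, 25 and 36 with riboflavin and 6, 9 and 8 in Col-0. These loci carry neighbouring numbers on chromosome 2, whose pericentromere holds a copy of the mitochondrial genome, so reads of the near-identical mitochondrial genes are uncertain in their assignment. Melinoe had 10, 7 and 5 counts of AT2G07696, 3, 17 and 8 of AT2G07734 and 13, 7 and 5 of AT2G07675.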
